A study of Mus musculus with 54 samples.

Results

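The C/EBP family of transcription factors is described here by its 5 members in the count table, Cebpa, Cebpb, Cebpd, Cebpe and Cebpg, out of 27297 gene rows. A member was taken where the name of a row, divided at semicolons, holds its symbol, and each of the 5 had a row with that symbol alone. C/EBP proteins are basic leucine zipper factors that bind DNA as dimers, with one another or with related zipper proteins. In bone marrow Cebpa is needed for the step from multipotent to granulocyte and macrophage progenitors, and Cebpe for the later granule program of neutrophils and eosinophils. Cebpg has the zipper but no activation domain of its own and acts through its partners, and Cebpb and Cebpd are known from emergency granulopoiesis and inflammation.

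Cells of C57BL/6 mouse bone marrow were profiled by MARS-seq, which sorts single cells into wells, marks the 3' ends of their mRNAs by well and by molecule (a unique molecular identifier, UMI), and sequences wells in pools. A pool is the unit of replication below. All cells were lineage negative, cKit+ and Sca1-. Per the description in the authors' well table, 16 pools held unsorted wild-type cells (2732 cells) and 3 sets held gates of common myeloid progenitors (CMP), which are CD34+ with low FcgR: CMP CD41 (CD41+, 2 pools, 336 cells), CMP Flt3+ Csf1r+ (6 pools, 1132 cells) and CMP Irf8-GFP+ MHCII+ (from Irf8-GFP reporter mice, 6 pools, 1116 cells). The Cebpa KO group (12 pools, 1384 cells) is Cebpa(flox/flox)Mx1-Cre with poly(I:C), where Cre is driven by the interferon-inducible Mx1 promoter and is not limited to one blood lineage. Its control group (6 pools, 890 cells) is Cebpa(flox/flox), also with poly(I:C), and 2 of these pools carry the strain label of the knockout with the Cre. Cebpe KO (Cebpe-/-, 4 pools, 559 cells) stands beside Cebpe control (Cebpe+/+, 2 pools, 250 cells). The labels give 300 µg of poly(I:C) in 3 injections, 3 weeks before harvest, for part of the pools labelled Cebpa KO or Cebpa control. By description all pools with a labelled dose are in other groups: 2 in CMP Flt3+ Csf1r+, 2 in Cebpe control and 2 in Cebpe KO. No pool described as Cebpa KO or Cebpa control has a labelled dose. The labelled age is 6 to 8 weeks, or 14 weeks for 12 pools labelled as the knockout series.

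For 18 of the 54 pools the label in GEO and the description in the authors' table name different groups. Groups here follow the description, and the members' ratios and the counts of called genes were also computed for the 36 pools where both are the same, where such pools exist. The gene lists, marker sums, and cluster and co-detection values by group follow the description alone. No Cebpe pool is among those 36. The libraries described as Cebpe KO replicates 1 and 2 are labelled Cebpa control, those described as Cebpe KO replicates 3 and 4 are labelled Cebpe control, and both described as Cebpe control are labelled Cebpa KO. Ages and doses come from the labels, so for these pools they may belong to another group. The table gives 1 mouse identifier for each group. Whether an identifier is 1 mouse or several is not stated, so no comparison has a known animal replicate. Pools also share plates. The 2 Cebpe control pools lay on 1 plate, as did the 2 CMP CD41 pools. The 4 Cebpe KO pools lay on 2 plates, the 6 Cebpa control pools on 3 and the 12 Cebpa KO pools on 6. The p-values over pools take no account of the plate and measure only the spread between pools, which may be technical.

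Wells with a single cell and at least 500 UMIs were kept, 8399 of 10260, with a median of 2646 UMIs a cell and 121254 to 852363 UMIs a pool. Levels are given as CPM, a gene's UMIs over all UMIs, scaled to 1e6, and they are compared between groups for one gene, not between genes. In sums over a pool, fewer cells of a type and less RNA per cell cannot be told apart. Intervals and floors cover counting error only. In the kept cells Cebpa had 3084 UMIs in 1896 cells, Cebpg 1741 UMIs in 1348 cells and Cebpe 902 UMIs in 531 cells. Cebpb and Cebpd had 2 UMIs each, below the 3 counts taken as the floor (0.109 CPM), so no level or comparison is given for them. Both Cebpb UMIs were in unsorted cells, and the Cebpd UMIs were in 1 CMP Flt3+ Csf1r+ cell and 1 Cebpe KO cell.

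Cebpa stood highest in Cebpe KO and was nearly absent in Cebpa KO. The Cebpe KO pools had 329, 338, 257 and 275 CPM (mean 299.8 ± 39.7, SD, n = 4). The CMP Flt3+ Csf1r+ pools ran from 142 through a median of 190 to 245 CPM, and the CMP Irf8-GFP+ MHCII+ pools from 108 through 123 to 186 CPM. Unsorted pools lay between 68.3 and 142 CPM with a median of 115, and Cebpa control pools between 73.8 and 152 CPM with a median of 103. The Cebpe control pools had 57.1 and 39.3 CPM and the CMP CD41 pools 29.3 and 14.1 CPM. The 12 Cebpa KO pools lay between 0 and 6.80 CPM with a median of 1.04. In this order the pool ranges of CMP Flt3+ Csf1r+, CMP Irf8-GFP+ MHCII+, unsorted and Cebpa control overlapped each with the next, and the other neighbours did not overlap.

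Cebpe had another order. Cebpa control pools ran from 28.8 through 65.5 to 119 CPM, unsorted pools from 31.7 through 53.5 to 137 CPM, and the Cebpe control pools had 67.2 and 35.9 CPM. All 3 gates were lower: CMP Irf8-GFP+ MHCII+ pools lay between 4.77 and 16.0 CPM, CMP Flt3+ Csf1r+ pools between 3.38 and 7.10 CPM, and the CMP CD41 pools had 0 and 11.3 CPM. Cebpa KO pools lay between 0 and 6.76 CPM, with 5 UMIs in all, and the Cebpe KO pools had no UMI. Cebpe control and CMP Irf8-GFP+ MHCII+ were the only neighbours in this order whose pools did not overlap.

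Cebpg was detected in all 8 groups, and the pool ranges of all neighbours overlapped. The 6 Cebpa control pools lay lowest, between 18.6 and 71.0 CPM with a median of 34.6, and the Cebpe KO pools highest, between 66.6 and 120 CPM. Unsorted pools lay between 42.1 and 91.6 CPM with a median of 56.4. CMP Irf8-GFP+ MHCII+ pools ran from 50.6 through 75.0 to 112 CPM, Cebpa KO pools from 36.0 through 69.5 to 101 CPM and CMP Flt3+ Csf1r+ pools from 28.0 through 42.3 to 75.3 CPM. The Cebpe control pools had 77.3 and 66.7 CPM and the CMP CD41 pools 53.3 and 45.0 CPM.

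**Figure D1:**
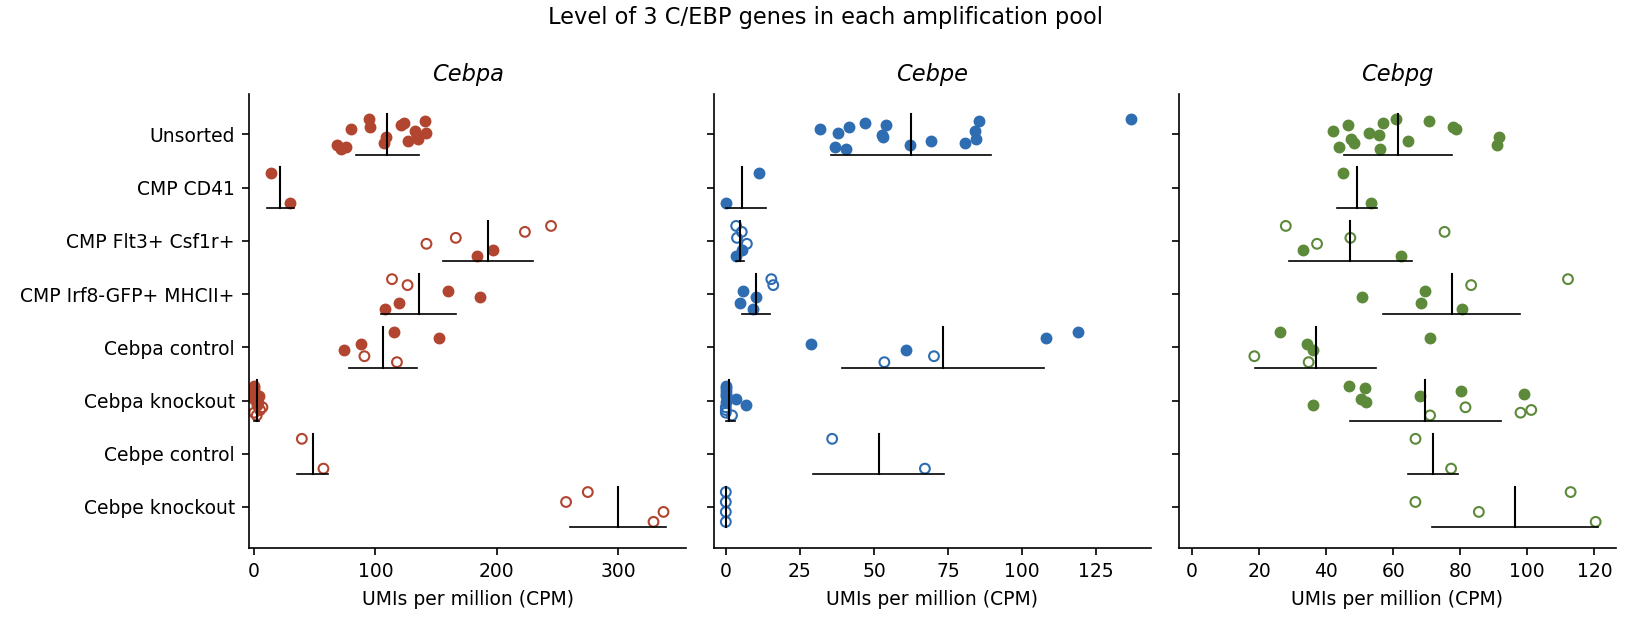
Level of Cebpa, Cebpe and Cebpg in each of the 54 pools (x axis, CPM; lines, groups by the description in the authors' table; filled dots, pools whose label names the same group; open dots, pools whose label differs; black line, mean; thin line, SD). Cebpa is at 0 to 6.80 CPM in Cebpa KO and at 257 to 338 CPM in Cebpe KO, while the Cebpg ranges of neighbouring groups overlap.

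The Cebpa KO comparison asks what loss of Cebpa leaves of the progenitors' expression, and the targeted gene comes first. In Cebpa KO 8 of 1384 cells held a Cebpa UMI (0.578%, exact binomial 0.250% to 1.14%), against 203 of 890 control cells (22.8%). The erythroid-like clusters of unsorted cells described further on, where the gene is low, held a Cebpa UMI in 3.55% and 3.27% of cells at median depths of 4784.5 and 5298 UMIs, against 1834.5 UMIs in Cebpa KO. The sources used here do not state where the counted 3' tags lie relative to the floxed segment. Wells without a cell held no Cebpa UMI in this group (1225 UMIs in 24 wells).

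Over pools, edgeR's quasi-likelihood test gave Cebpa a log2 ratio of -5.61 in Cebpa KO (SE 0.35, adjusted p = 3.4e-12), and no knockout pool reached a control pool. Cebpe, the later factor of the family, fell with it (-5.63, SE 0.48, adjusted p = 1.1e-09 by edgeR): 5 UMIs remained in 12 pools against 185 in 6 control pools. Cebpg, the partner without an activation domain, rose by 0.87 (SE 0.26, adjusted p = 0.022 by edgeR), from a control median of 34.6 CPM to 69.5 CPM, with ranges that overlapped. Of the 5977 genes tested 18.2% were called (9.59% higher, 8.58% lower). All 3 members tested were called, but Cebpa is the targeted gene, so its call was set by the knockout and is not weighed against that share. Within the larger sequencing batch, whose 8 and 4 pools are those with matching labels, Cebpa had a log2 ratio of -6.25 (adjusted p = 5.1e-08 by edgeR) and Cebpe kept 4 UMIs against 131, too few for the test. The Cebpg rise did not pass there (0.38, adjusted p = 0.43 by edgeR; 52.9 against 39.1 CPM), while in the smaller batch it was 1.76 (adjusted p = 0.0012 by edgeR; 87.6 against 25.7 CPM). The difference between the batches was 1.37 (SE 0.51, adjusted p = 0.48 by edgeR), a comparison added after both values were seen, in which 0.0143% of 6993 genes were called. Labels in the larger batch give 6 to 8 weeks of age and no dose, and those in the smaller batch name other groups. The part of age or dose was not tested.

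Genes of the granule program fell with both factors. Of 7 primary granule genes tested, 4 fell and 1 rose, with a median log2 ratio of -4.46 against 0.02 over all genes: Ctsg, cathepsin G (-5.74), Elane, neutrophil elastase (-5.42), Prtn3, proteinase 3 (-5.33) and Mpo, myeloperoxidase (-4.46) fell, and Cst7, the inhibitor cystatin F, rose (1.19). Fcnb, ficolin B, was the only gene with enough UMIs for the test in the secondary granule list, which also holds other Cebpe-associated genes. It fell by 4.98, from 43.8 to 1.19 CPM, and entered the test through the control pools. Both cytokine receptors tested fell, Csf1r, the M-CSF receptor (-2.10), and Csf2ra, the GM-CSF receptor alpha chain (-1.13). Of 11 regulators 2 fell, Irf8, a factor of monocytes and dendritic cells (-3.87), and E2f1, a cell cycle factor (-0.65), and 2 rose, Sox4 (1.19) and Trib2, a pseudokinase that lowers C/EBP alpha protein (0.83). Both acute-phase genes tested, known C/EBP targets in liver, fell: Slpi (-5.91) and Hp (-4.17). None of 5 other zipper factors passed, and of 8 erythroid and megakaryocyte factors Tal1 alone did (0.64). Markers of other cells moved as well: the summed level of 12 erythroid markers was 14279 to 17153 CPM in Cebpa KO pools and 9423 to 14775 CPM in control pools, that of 10 neutrophil markers 132 to 1322 CPM against 10509 to 19325 CPM, that of 9 monocyte markers, Csf1r and Irf8 among them, 24.1 to 166 CPM against 449 to 987 CPM, and the part of these shifts in the changes of single genes was not tested.

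The Cebpe KO comparison asks the same of the later factor. No Cebpe UMI was found in 559 Cebpe KO cells, which allows a level of up to 1.40 CPM and a share of up to 0.537% of cells, against 61 UMIs in 30 of 250 control cells (12.0%). Measured against that floor the log2 ratio was at most -5.21. Cebpa rose: its 4 pools of 257 to 338 CPM lay above the control pools of 57.1 and 39.3 CPM, and the log2 ratio was 2.74 (SE 0.22, adjusted p = 2.3e-10 by edgeR). Both of these control pools also lay below every unsorted pool (68.3 to 142 CPM) and every Cebpa control pool (73.8 to 152 CPM). Cebpg had pools of 120, 85.6, 66.6 and 113 CPM against 77.3 and 66.7 CPM, ranges that overlapped, and did not pass (0.53, adjusted p = 0.13 by edgeR); without Cebpe KO replicate 3 it did (0.71, adjusted p = 0.032). The test called 23.4% of 7369 genes, 13.5% higher and 9.85% lower. These pools all come from 1 sequencing batch. Grouped by their labels instead, 2 of the pools called knockout held 20 and 34 Cebpe UMIs and the directions of all 3 members turned, with no member passing the test. Cebpa was then -2.39 and Cebpg -0.74, and Cebpe, with 55 UMIs against none in the pools called control, had a log2 ratio of at least 3.75.

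Most tested genes of the primary granule list and of the secondary granule and Cebpe-associated list were higher in Cebpe KO. Of 8 primary granule genes tested 7 rose, Elane (2.29), Prtn3 (2.01) and Mpo (1.65) the most, with a median log2 ratio of 1.51. Of the 13 genes of the secondary granule list with a row, 7 were tested. A gene low in the controls enters the test through the knockout pools alone, in this and the other lists. The counts and medians are therefore no measure of a whole list. All 7 tested genes rose, with a median of 5.60 against -0.01 over all genes (5.03 with Cd177 at its bound). These included S100a8 and S100a9, the calprotectin subunits, Lcn2, lipocalin 2, and Chi3l3, a chitinase-like lectin with near-identical copies whose value is uncertain. Fcnb stood at 277, 176, 236 and 234 CPM in the Cebpe KO pools and at 16.8 and 10.3 CPM in the control pools (log2 ratio 4.19). Lcn2 stood at 940.4, 812, 810.4 and 787 CPM against 25.2 and 12.0 CPM (5.60), and S100a9 at 2176, 1082, 1364 and 1578 CPM against 63.8 and 39.3 CPM (5.03). Each knockout pool lay above both control pools for these genes, and Cd177, at 0 in the controls, was at least 26.6-fold higher. All 6 cytokine receptors rose, led by Csf2rb (2.80), Csf3r, the G-CSF receptor (2.48), and Il6ra (2.35). Of 8 zipper factors 3 rose (Fos with 54 UMIs against 1, log2 ratio 4.89, 95% counting interval 2.35 to 10.2, Nfil3 1.93, Batf 1.21), and of 14 regulators 7 rose and 3 fell, among them Id1 (3.48) and Trib2 (-2.79). Of 8 erythroid and megakaryocyte factors 5 fell, led by Gfi1b (-1.75), Klf1 (-1.73) and Zfpm1 (-1.65), and Fli1 rose (1.17). All 4 acute-phase genes tested rose, led by Lrg1 (4.51), C3 (3.49) and Hp (3.27). Markers of other bone marrow cells, 8 of 11 of them at 0 in Cebpe KO, summed to 670 to 834 CPM against 340 to 408 CPM, and Nkg7, which this list shares with the primary granule list, rose (1.15). Markers of several cell types moved with these genes. The 10 neutrophil markers, all but Gstm1 and Gfi1 of them also in the granule lists and with Ngp at 0 in both groups, summed to 50515 to 56120 CPM in Cebpe KO pools and 14346 to 15904 CPM in the controls. The 9 monocyte markers summed to 3471 to 4471 CPM against 1489 to 1907 CPM, with Ccr2 at 0 in the controls. The 12 erythroid markers summed to 3055 to 4527 CPM against 10720 to 12676 CPM, and the 4 eosinophil markers to 0 to 11.6 CPM against 3.42 and 415 CPM. The part of these shifts in the changes of single genes was not tested.

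The promoters of 3 genes of the secondary granule list that rose together are printed because each holds letters of a C/EBP site. The bases shown are the 250 before the gene start, from RefSeq on build GRCm38.p6, 5' to 3' on the minus strand, with matches to TTGCNNAA on either strand in capitals: chr2:28084879-28085128 for Fcnb, chr2:32387740-32387989 for Lcn2 and chr3:90695722-90695971 for S100a9.
Fcnb: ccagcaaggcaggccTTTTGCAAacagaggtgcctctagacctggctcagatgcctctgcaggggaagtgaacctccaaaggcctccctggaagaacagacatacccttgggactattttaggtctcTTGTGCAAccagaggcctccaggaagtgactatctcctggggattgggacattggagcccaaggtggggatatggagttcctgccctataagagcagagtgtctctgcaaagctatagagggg
Lcn2: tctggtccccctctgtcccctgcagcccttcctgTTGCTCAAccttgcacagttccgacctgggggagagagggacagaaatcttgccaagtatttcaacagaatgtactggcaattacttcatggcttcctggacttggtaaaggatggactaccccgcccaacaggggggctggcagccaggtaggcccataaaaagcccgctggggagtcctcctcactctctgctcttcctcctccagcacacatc
S100a9: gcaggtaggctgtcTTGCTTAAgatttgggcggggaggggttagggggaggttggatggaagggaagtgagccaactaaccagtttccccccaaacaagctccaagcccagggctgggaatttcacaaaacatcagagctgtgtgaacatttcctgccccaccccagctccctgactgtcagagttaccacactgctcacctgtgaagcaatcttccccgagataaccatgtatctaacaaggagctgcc
In Fcnb the matches begin 235 and 123 bases before the gene start, in Lcn2 216 and in S100a9 236. In windows of 300 bases, from 250 before to 50 after the start, TTGCNNAA was found in 10.8% of 32851 promoters and for 12.2% of 27025 genes. It was found for 7 of the 12 genes of the secondary granule list with an entry (Ltf, Lcn2, Ngp, Mmp8, Fcnb, Ly6g and S100a9). These 12 were not limited to genes that rose in Cebpe KO. Ngp had no UMI in either group of that comparison, and S100a8 and Cd177, which also rose, had no match. Other matches were for 1 of 8 primary granule genes (Cst7), 1 of 4 cytokine receptors (Il3ra) and 0 of the 3 members with an entry, Cebpa, Cebpb and Cebpg. A match is a description of letters and not a site.

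The 3 gates were set against the same 16 unsorted pools, so their ratios share a control. Cebpe was lower in each: -3.35 in CMP CD41 (SE 0.69, adjusted p = 2.1e-04), -3.53 in CMP Flt3+ Csf1r+ (SE 0.40, adjusted p = 2.1e-09) and -2.56 in CMP Irf8-GFP+ MHCII+ (SE 0.32, adjusted p = 1.3e-08, all by edgeR). Cebpa differed in direction: the log2 ratio was -2.22 in CMP CD41 (SE 0.37, adjusted p = 1.1e-05), 0.89 in CMP Flt3+ Csf1r+ (SE 0.15, adjusted p = 3.1e-06), and 0.30 in CMP Irf8-GFP+ MHCII+ with no pass (SE 0.15, adjusted p = 0.087, all by edgeR). Cebpg passed in none (-0.23, -0.29 and 0.33). Of the 8720 genes tested, 40.5% were called in CMP CD41 (18.0% higher, 22.5% lower), 53.3% in CMP Flt3+ Csf1r+ (25.8% higher, 27.5% lower) and 56.1% in CMP Irf8-GFP+ MHCII+ (28.3% higher, 27.8% lower), so a call as such does not set the members apart here. CMP CD41 shares a sequencing batch with 4 unsorted pools, within which Cebpa was -1.80 and Cebpe -3.19 (adjusted p = 0.0029 and 0.0040 by edgeR). Its Cebpe value rests on 4 UMIs, all in replicate 2: without replicate 1 it was -2.31 (adjusted p = 0.032 by edgeR), and replicate 1 held no Cebpe UMI, which allows up to 8.00 CPM. For the other 2 gates no unsorted pool shares a batch, so batch and group cannot be told apart, and the reporter allele goes with its gate in the same way. Cebpa in CMP Irf8-GFP+ MHCII+ passed with matching labels alone (0.42, adjusted p = 0.047 by edgeR), and grouping by label took the CMP Flt3+ Csf1r+ value to 0.033 (adjusted p = 0.95).

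Around the members, the gates differed by lineage genes. In CMP CD41 5 of 8 primary granule genes fell and 1 rose (Elane -5.75, Prtn3 -3.16, Ctsg -3.13, and Srgn, the granule proteoglycan serglycin, 0.45), 3 of 6 cytokine receptors fell (Csf3r -2.38), Klf1, the erythroid factor, fell (-3.90) and Gata2, a factor of megakaryocytes and stem cells, rose (2.40). CMP Flt3+ Csf1r+ had 3 of 8 primary granule genes higher and 3 lower (Nkg7 -2.51, Elane -1.93, Ctsc 0.63) and 4 of 6 receptors higher, led by Il3ra (2.26), Csf1r (2.17) and Il6ra (1.50). Klf1 (-7.54) and Gata1 (-5.84) fell there and Irf8 rose (2.48). Trib2 had 201 UMIs in unsorted cells and none in CMP CD41 or CMP Flt3+ Csf1r+, at least 4.95-fold and 19.6-fold lower. In CMP Irf8-GFP+ MHCII+ 6 of 8 primary granule genes fell and 1 rose (Elane -3.05, and Ctsc, cathepsin C, 0.53), and Batf3, a zipper factor of dendritic cells (5.60), and Id2, an inhibitor of helix-loop-helix factors (5.06), rose. Fcnb had no UMI in any of the 3 gates against 211 in unsorted cells (21.4 CPM), which makes it at least 5.20-fold, 20.5-fold and 25.4-fold lower in the order above. Of 11 genes of other bone marrow cells 3 were tested: Cd79b rose in all 3 gates (1.12, 1.73 and 1.22), and Col1a1 rose in CMP Flt3+ Csf1r+ (124 UMIs against 1, log2 ratio 8.73, interval 6.22 to 14.0) and CMP Irf8-GFP+ MHCII+ (236 UMIs against 1, 9.35, interval 6.86 to 14.7). The summed level of that list was 149 to 203 CPM in CMP CD41 pools, 171 to 334 and 144 to 416 CPM in the other gates and 88.2 to 642 CPM in unsorted pools. Cd79a was at 0 in the first 2 gates, Cd3d and Gzma too, and the part of these genes in the results was not tested.

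Surface CD34 and FcgR were recorded at sorting for 2708 of the unsorted cells, and the cells of each plate were ranked and divided into 3 equal classes, called low, middle and high. Median intensities of these classes were 12.5, 215 and 1687 for FcgR and 37, 131 and 337 for CD34, in arbitrary units. Cebpa and Cebpe were higher in cells with more surface FcgR or CD34, and Cebpg did not pass the test for either. Over the 16 pools Cebpa had 0 to 21.9 CPM (median 4.23) in FcgR-low cells and 134 to 354 CPM (median 287) in FcgR-high cells. Cebpe had 0 to 18.9 CPM (median 4.39) and 94.5 to 302 CPM (median 161). For neither gene did the pools of both classes overlap. The log2 ratio of high to low was 5.24 for Cebpa (SE 0.19, adjusted p = 1.9e-37) and 4.75 for Cebpe (SE 0.23, adjusted p = 3.4e-30), both by edgeR with the pool as a block. For Cebpg it was 0.10 (SE 0.15, adjusted p = 0.57 by edgeR), with 33.6 to 102 CPM in FcgR-low and 33.2 to 107 CPM in FcgR-high cells. This comparison called 66.5% of 5855 genes (30.8% higher, 35.7% lower), so a call as such does not set the members apart. The share of all genes whose pools did not overlap was not counted. Cebpa UMIs were found in 3.33%, 17.5% and 53.4% of FcgR-low, FcgR-middle and FcgR-high cells and Cebpe UMIs in 3.11%, 4.10% and 30.1%, at median depths of 5079, 1967 and 3007 UMIs.

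Between the low and the high CD34 classes, Cebpa and Cebpe were also higher in the high class. Many of the cells compared are the same as for FcgR, so this is not a separate result. Of 905 CD34-high cells 636 were also FcgR-high, and of 900 CD34-low cells 664 were also FcgR-low. Cebpa pools lay between 0 and 34.1 CPM in CD34-low and between 153 and 425 CPM in CD34-high cells (log2 ratio 4.95, SE 0.22, adjusted p = 3.8e-29 by edgeR), with no overlap. Cebpe pools lay between 0 and 27.5 CPM and between 39.4 and 236 CPM (3.70, SE 0.23, adjusted p = 1.3e-22 by edgeR), also with no overlap, and Cebpg did not pass (0.18, adjusted p = 0.34 by edgeR). Here 61.1% of 5914 genes were called (28.8% higher, 32.3% lower), and the share with no overlap was again not counted. The 8 primary granule genes and the 5 receptors tested rose with either marker. The largest of these along FcgR were Elane (5.93), Prtn3 (5.30), Ctsg (5.18), Csf3r (5.90) and Csf2rb (5.29). Fcnb rose with FcgR (5.28) and did not pass with CD34 (0.68). Klf1 (-4.02) and Gata1 (-3.33) fell with FcgR. The summed erythroid markers were 16928 to 20858 CPM in FcgR-low and 567 to 1773 CPM in FcgR-high cells, and their part in these ratios was not tested.

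Cebpa came up at lower FcgR than Cebpe. In FcgR-middle cells Cebpa was at 113 CPM and Cebpe at 26.6 CPM, against 271 and 170 CPM in FcgR-high cells. In 10 equal bins of FcgR, from low to high, Cebpa was at 27.3, 62.2, 123 and 285 CPM in bins 4 to 7, then between 243 and 294 CPM. Cebpe was at 6.30, 5.18, 26.0 and 115 CPM in the same bins, reached 215 CPM in bin 8 and stood at 129 CPM in bin 10. These bins are a description with no test. Along CD34 Cebpa was at most at 8.76 CPM and Cebpe at 8.51 CPM in bins 1 to 3. They were at 16.0 and 18.4 CPM in bin 4, and at 67.8 and 69.8 CPM in bin 5. Cebpa then went on to 287 CPM in bin 10, while Cebpe was at 156 CPM in bin 7 and 80.5 CPM in bin 10. Cebpg stayed between 52.4 and 77.8 CPM over all bins of both markers.

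**Figure D2:**
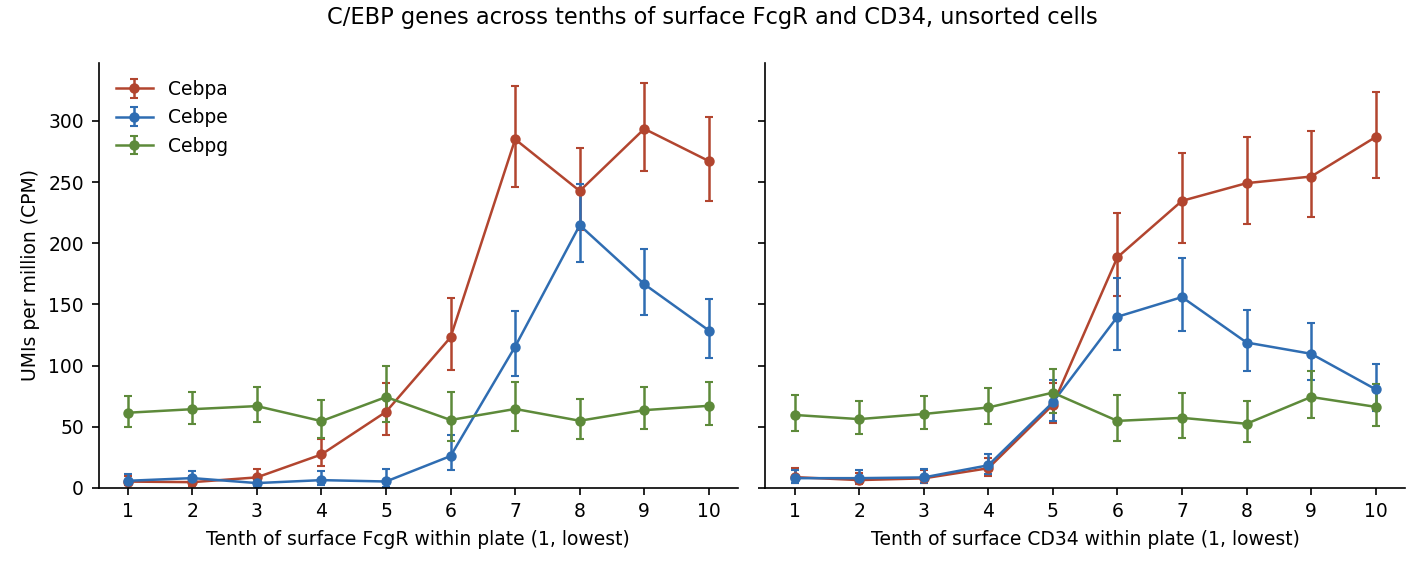
CPM of Cebpa, Cebpe and Cebpg in unsorted cells in 10 equal bins of surface FcgR (left) and CD34 (right), ranked within plate (bars, 95% exact Poisson intervals of the summed UMIs). Cebpa is at 123 CPM and Cebpe at 26.0 CPM in FcgR bin 6, and Cebpg stays between 52.4 and 77.8 CPM.

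Among FcgR-high cells, Cebpe was higher with middle than with high CD34 and Cebpa did not pass the test. With middle CD34 (255 cells) Cebpe was at 259 CPM (pools 116 to 507) and with high CD34 (636 cells) at 134 CPM (pools 49.3 to 258), ranges that overlapped. Cebpa was at 252 and 281 CPM. This comparison was added after the bins were seen: the log2 ratio of middle to high was 0.91 for Cebpe (SE 0.15, adjusted p = 4.2e-06) and -0.12 for Cebpa (SE 0.13, adjusted p = 0.70), by edgeR with the pool as a block, where 6.75% of 3202 genes were called (3.87% higher, 2.87% lower) and Cebpg had too few UMIs. Fcnb moved most among the list genes, by 3.40 (156 against 11.9 CPM), and 7 of 8 primary granule genes rose, Elane by 0.83. Gfi1, a repressor needed for neutrophils, rose by 1.26 and Csf3r by 0.96, while Csf1r (-0.82) and Irf8 (-0.77), both of the monocyte side, fell. The summed neutrophil markers were 64327 CPM with middle and 43904 CPM with high CD34. The 4 eosinophil markers summed to 512 CPM with middle and 248 CPM with high CD34, with pool medians of 15.9 and 37.3 CPM and highest pools of 4347 and 1285 CPM. The part of either list was not tested. In the cells with middle FcgR and high CD34 (265 cells) Cebpa was at 217 CPM and Cebpe at 26.3 CPM. In the cells low in both (664 cells) they were at 6.43 and 7.01 CPM. Only 14 cells had high FcgR and low CD34, with 9 Cebpe UMIs in 3 of them.

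**Figure D3:**
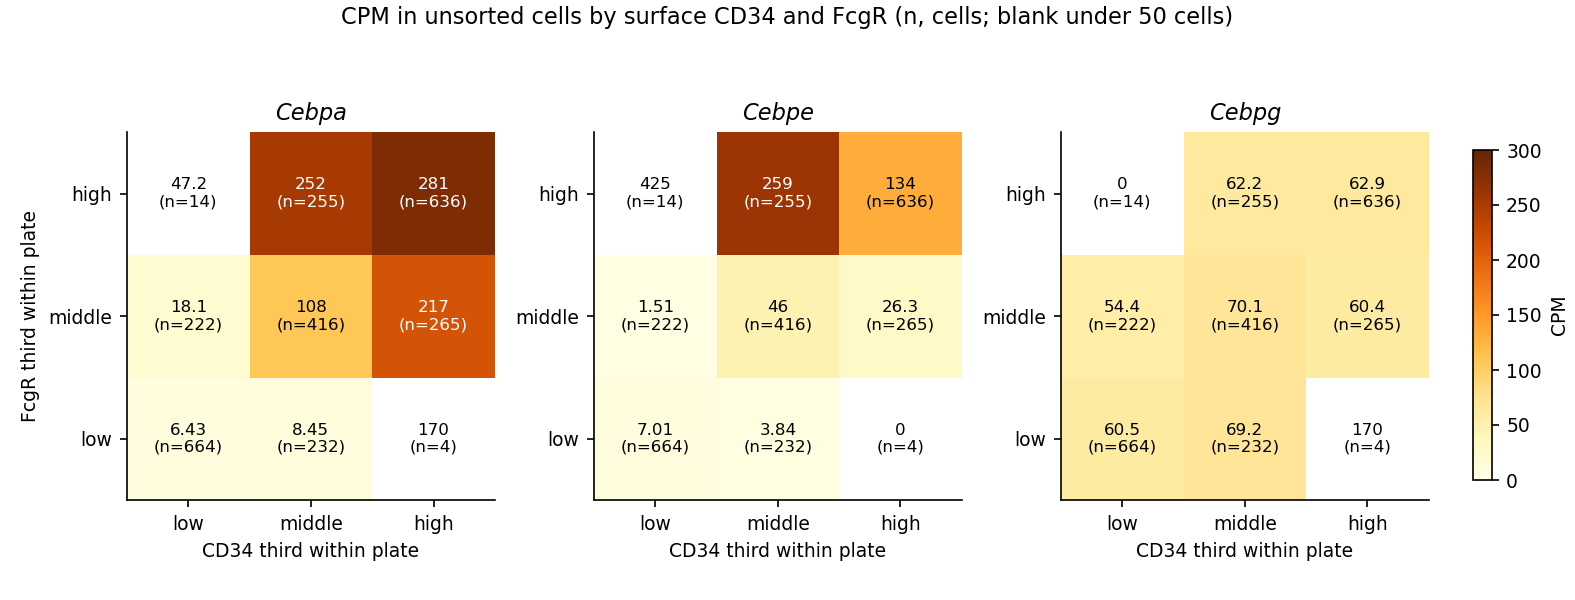
CPM of Cebpa, Cebpe and Cebpg in unsorted cells by low, middle and high surface FcgR (y axis) and CD34 (x axis) within plate, with the number of cells; bins under 50 cells are left blank in colour. Cebpe is at 259 CPM with high FcgR and middle CD34 and at 134 CPM with both high, and Cebpa at 252 and 281 CPM.

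Whether members are found in the same cells was read after each unsorted cell was thinned to 1000 UMIs, which left out 315 shallower cells and kept 2417. Of these 279 held a Cebpa UMI (11.5%), 143 a Cebpe UMI (5.92%) and 151 a Cebpg UMI (6.25%), and Cebpb and Cebpd had none. Without thinning the shares were 24.8%, 12.6% and 18.7% of 2732 cells. Cebpa and Cebpe shared 31 cells, while 248 held Cebpa alone and 112 Cebpe alone. Cebpe was found in 11.1% of cells with Cebpa and in 5.24% of cells without. Over the 16 pools the difference was 4.67 percentage points (SD 8.04), higher in 10 of 16, with p = 0.034 by an exact two-sided sign-flip permutation test and 0.10 after Benjamini-Hochberg adjustment over the 3 pairs that could be tested of 10. At 2000 UMIs the difference was 11.6 points, higher in 14 of 16 pools (adjusted p = 0.0021, exact permutation), and without thinning 17.6 points in 16 of 16 (adjusted p = 9.2e-05, from the smallest p these permutations can give). These settings also kept different cells (1942 at 2000 UMIs and 2732 without thinning). Neither Cebpa with Cebpg (-0.386 points, adjusted p = 0.81) nor Cebpe with Cebpg (-2.92 points, adjusted p = 0.21) passed in the same permutation test.

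FcgR-high cells held 28 of the 31 cells with both. Among them Cebpe was found in 14.1% of cells with Cebpa and in 14.2% of cells without (mean difference -1.14 points over 15 pools, adjusted p = 0.87, exact permutation). Among FcgR-middle cells 3 held both, and Cebpa was found in 10.2% and Cebpe in 2.02% of 694 cells. Of 848 FcgR-low cells 7 held Cebpa, 4 Cebpe and none both. With high FcgR and middle CD34, 12 of 240 cells held both, 39 Cebpa alone and 40 Cebpe alone. With both markers high, 16 of 603 held both, 131 Cebpa alone and 50 Cebpe alone. A cell without a UMI of a gene at this depth may still express it.

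In the other groups the thinned shares of cells with Cebpa fell in the same order as the pool levels. The unsorted cells, at 11.5%, did not keep that order: they lay above CMP Irf8-GFP+ MHCII+ in share and below it in pool level. Cebpa was found in 24.4% of 509 Cebpe KO cells, 16.3% of 1047 CMP Flt3+ Csf1r+ cells, 10.7% of 1068 CMP Irf8-GFP+ MHCII+ cells, 9.60% of 781 Cebpa control cells, 4.48% of 223 Cebpe control cells, 4.15% of 289 CMP CD41 cells and 0.374% of 1069 Cebpa KO cells. Cells with both Cebpa and Cebpe numbered 7 in Cebpa control, 6 in CMP Irf8-GFP+ MHCII+, 2 in Cebpe control and 0 in the other 4.

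The unsorted cells were grouped into 13 clusters from genes other than the 5 members, and 9 clusters were named from marker genes; levels in clusters are a description with no test, since the same cells were clustered. Cebpe was at 373 CPM in the 315 neutrophil-like cells (pools 167 to 501), at 32.7 and 44.1 CPM in the 2 large monocyte-like clusters and at 79.7 CPM in the stem or multipotent-like cluster. Cebpa was at 268, 231, 302 and 239 CPM in those 4 clusters. The small monocyte-like cluster of 29 cells had 12 Cebpe UMIs (123 CPM, interval 63.7 to 215) and 32 Cebpa UMIs (329 CPM, interval 225 to 464). In the erythroid-like clusters Cebpa was at 7.09 and 6.42 CPM and Cebpe at 4.96 and 5.43 CPM, and the megakaryocyte-like cluster had 1 UMI of each. Cebpg was at 51.8 to 67.5 CPM in the 8 clusters of over 200 cells. The 74 megakaryocyte-like cells held 18 Cebpg UMIs (128 CPM, 95% Poisson interval 75.8 to 202). The mean over their 7 pools with at least 5 cells was 69.9 CPM (SD 67.4). The small monocyte-like cluster held 13 (133 CPM, interval 71.1 to 228). An unnamed cluster of 68 cells held 9 (93.7 CPM, interval 42.8 to 178), and clusters of 31 and 30 cells held 2 each.

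One unnamed cluster of 68 cells was led by Prg2 and Epx, of the eosinophil granule, with Prss34 and Mcpt8, proteases of basophils, and had 489 CPM of Cebpa and 344 CPM of Cebpe. Divided by which of these genes had more UMIs, a division made after the values were seen, 11 cells with more Prg2, Prg3 and Epx held 26 of its 33 Cebpe UMIs (1674 CPM, interval 1094 to 2453), in 9 cells from 8 pools and with up to 7 in 1 cell. The 28 cells with more Prss34 and Mcpt8 held 2 Cebpe UMIs (50.0 CPM, interval 6.06 to 181). The other 29 cells had no UMI of these 5 genes and held 5 Cebpe UMIs (123 CPM, interval 40.0 to 288) and 16 Cebpa UMIs (395 CPM, interval 226 to 641). Between the first 2 sets Cebpa had the opposite order, 5 UMIs (322 CPM, interval 105 to 751) against 26 (650 CPM, interval 425 to 953), with intervals that overlapped.

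**Figure D4:**
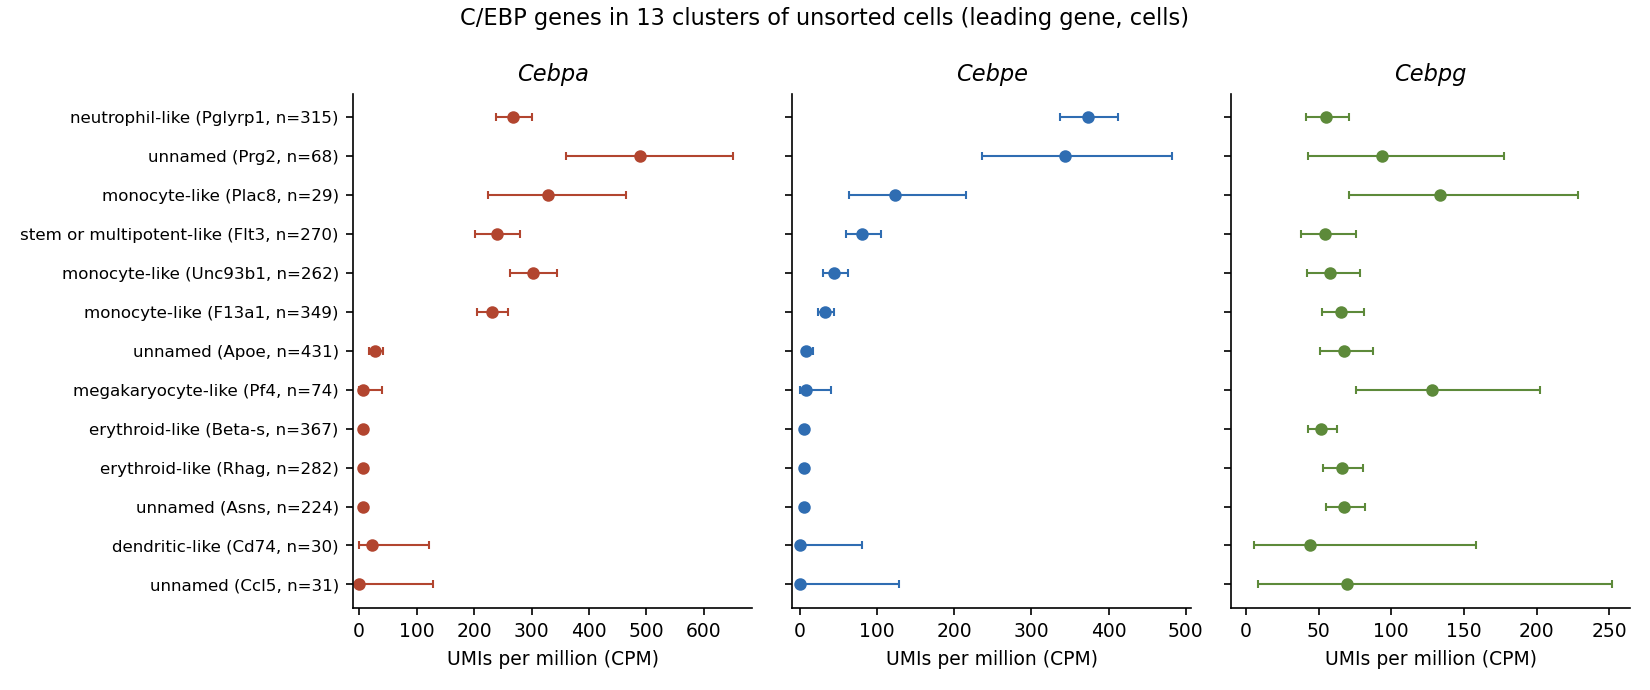
CPM of Cebpa, Cebpe and Cebpg in 13 clusters of unsorted cells (names from marker genes, with the leading gene and the number of cells; bars, 95% exact Poisson intervals). Cebpe is at 373 CPM in the neutrophil-like cluster and at 32.7 and 44.1 CPM in the 2 large monocyte-like clusters, where Cebpa is at 231 and 302 CPM.

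Cells of the other groups were given the nearest of these clusters, an assignment that returned 76.2% of unsorted cells to their own. Among neutrophil-like cells Cebpa was at 418 CPM in Cebpe KO (285 cells, pools 366 to 482), 132 CPM in Cebpe control (35 cells, pools 54.1 and 178), 268 CPM in unsorted and 219 CPM in Cebpa control cells (84 cells). The Cebpe KO pools lay above both Cebpe control pools in this class. That control value rests on 35 cells and was below those of unsorted and Cebpa control cells. The part of the mix of cells in the Cebpa rise was not tested. Among monocyte-like cells Cebpa was at 194 CPM in Cebpe KO (pools 161 to 256) and 125 CPM in Cebpe control (pools 120 and 129). Cebpe was at 311, 373 and 421 CPM in the neutrophil-like cells of Cebpe control, unsorted and Cebpa control. Lcn2 was at 1352 CPM in neutrophil-like Cebpe KO cells and at 45.3 to 70.2 CPM in the other 3 groups, whereas Fcnb, at 382 CPM in Cebpe KO, was at 72.8, 173 and 438 CPM in Cebpe control, unsorted and Cebpa control. No Cebpa KO cell had the neutrophil-like cluster as its nearest, so there is no value for it. Among monocyte-like cells the CMP Flt3+ Csf1r+ gate had 191 CPM of Cebpa and 5.88 CPM of Cebpe (947 cells), and the CMP Irf8-GFP+ MHCII+ gate 201 and 33.3 CPM (177 cells), against 260 and 41.0 CPM in unsorted cells.

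**Figure D5:**
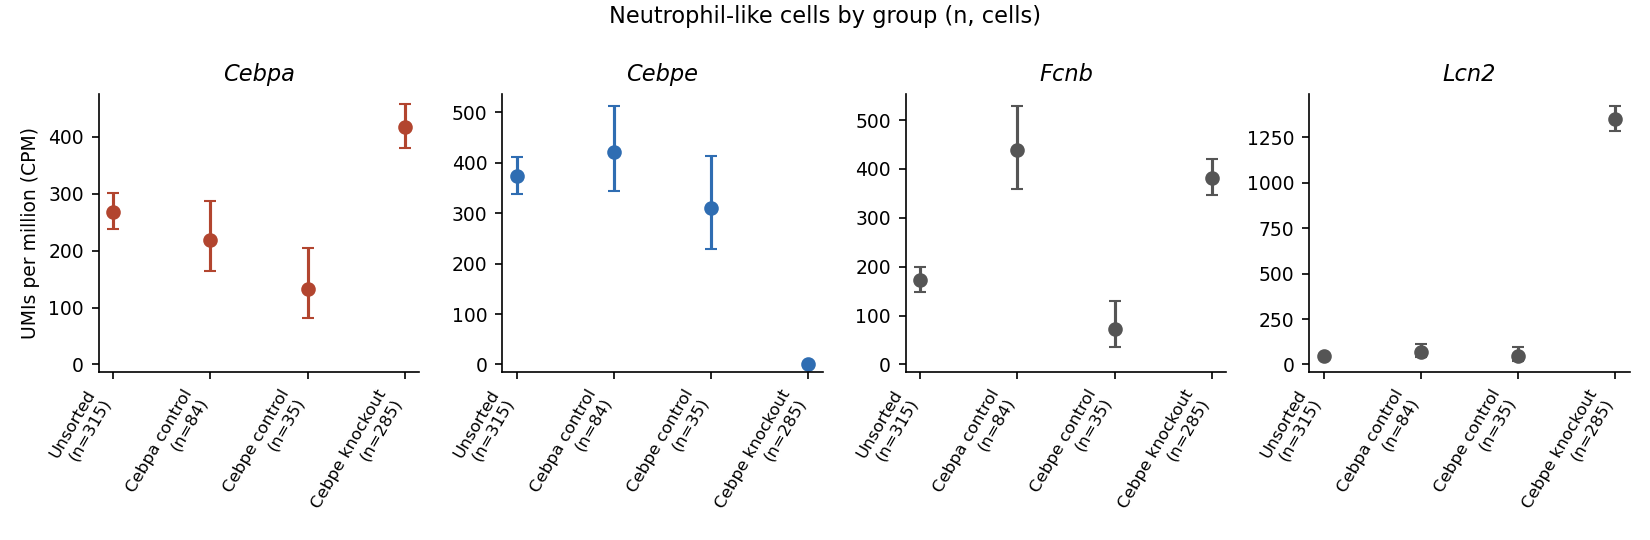
CPM of Cebpa, Cebpe, Fcnb and Lcn2 in neutrophil-like cells by group (number of cells under each name; bars, 95% exact Poisson intervals of the summed UMIs). Cebpa is at 418 CPM and Lcn2 at 1352 CPM in Cebpe KO, and Fcnb is at 382 CPM there and at 438 CPM in Cebpa control.

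Over the 54 pools, the genes most like each member were found among 4028 rows by Pearson's r of log2(CPM + 10), as a description in which pools share groups, batches and depth. The pools include Cebpa KO and Cebpe KO, where a member is itself the targeted gene, so the deletions enter each r. Their part in r was not tested. For Cebpa these were Hk3, hexokinase 3 (r = 0.97), Mpo (0.96), Ctsg (0.96), Lbp (0.95) and Adssl1 (0.95). The closest to Cebpe were lower, Cacybp (0.73), a row joining names of Hnrnpa2b1 (0.70), Psen2 (0.70), Sfpq (0.68) and Pelp1 (0.68), and so were those of Cebpg, Hipk1 (0.73), 1810006K21Rik (0.70), Rod1 (0.68), Cdc16 (0.68) and Actr2 (0.68). Between members r was 0.38 for Cebpa and Cebpe, -0.02 for Cebpa and Cebpg and -0.28 for Cebpe and Cebpg.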

How the data were processed

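UMI counts per gene and well and the fluorescence intensities of surface CD34 and FcgR recorded at sorting were used as the authors deposited them; bcl2fastq 2.15.0.4 and build mm9 are named in the submitters' processing notes, and the aligner and annotation were not given in the sources used here. The members and all gene lists were chosen with earlier results of these data known. Wells with 1 cell and at least 500 UMIs were kept, as sorted, with no doublet caller, and no well name was shared between pools. UMIs were summed over pools and tested with edgeR 4.0.16 (R 4.3.3, TMM, quasi-likelihood, Benjamini-Hochberg over all genes tested, called under 0.05), with DESeq2 1.42.0 as an alternative; the 3 gates and the unsorted pools were fitted together, each knockout was fitted with its control alone, and surface classes had the pool as a block. The script was tested on simulated counts. Clusters came from scanpy 1.11.5 (1000 variable genes, 20 components, 15 neighbours). Named genes were all members, the 3 largest changes past the test in each list, and the 5 genes most like each member among those with a mean of at least 50 CPM (pseudocount 10 CPM; members with a mean of at least 20 CPM). Intervals are at the 95% level, and a group at 0 was set at 3 counts for bounds. Other alternatives, some chosen after seeing the data (within-batch fits of the gates and surface classes, Cebpa control plates left out, the genotype by batch term, the CD34 comparison in FcgR-high cells), are reported with their effect. Both surface comparisons were also run without plates that stood apart, a choice made after seeing the data. Those runs enter the totals of alternatives below, and their values are not given.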

Additional observations from a re-analysis of the deposited data

Results flagged for a closer look

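Cebpg in the Cebpa control group had 1 pool that stood apart from the other 5: its highest pool was at 71.0 CPM, replicate 5 in the description, against a group median of 34.6 CPM. This was 1 of 11 member and group pairs examined for a pool far from the others, and chance marks about 1 in 20 groups. Wells without a cell held 4 Cebpa UMIs, 1 in each of 4 wells, among 6279 UMIs in 108 wells (637 CPM); 2 of these UMIs lay in the unsorted, 1 in the CMP Flt3+ Csf1r+ and 1 in the CMP Irf8-GFP+ MHCII+ plates, and the other 4 members had none.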

How the results depend on the processing

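Of 166 member ratios under alternatives, 150 kept their direction and their side of the threshold, 6 reversed, 6 no longer passed and 4 newly passed; of 56 counts of called genes 44 stayed within 1.5 times, and of 12 co-detection values 6 kept direction and call. For Cebpa KO 1086 genes were called, against 463 with matching labels alone (the pools of the larger batch), 68 by the GEO label, 670.0 without control replicates 5 and 6 and 1694 without control replicates 3 and 4. By the GEO label Cebpa was -1.96, Cebpe -2.05 and Cebpg -0.20; Cebpg was 0.38 with matching labels or in the larger batch and 0.82 without control replicates 3 and 4. For Cebpe KO 1721 genes were called, 1031 with DESeq2 and 908 to 1652 with 1 pool left out (lowest without Cebpe control replicate 2), and Cebpg was 0.40 to 0.71; by the GEO label Cebpa was -2.39 and Cebpg -0.74, and Cebpe, fitted at 6.98 over a control with no UMI, is given only as a bound of at least 3.75; matching labels alone could not be run. CMP CD41 had 3532 calls, 1932 to 2180 with 1 of its pools left out. By the GEO label CMP Flt3+ Csf1r+ had 2595 calls in place of 4651, Cebpa at 0.033 and Cebpg at 0.38, and CMP Irf8-GFP+ MHCII+ had Cebpg at -0.022; with 2 groups alone in the fit the latter had Cebpa at 0.36 and Cebpg at 0.39, and with matching labels Cebpa at 0.42. Within the smaller batch the FcgR comparison had 1853 calls in place of 3892 and the CD34 comparison 1653 in place of 3613. The Cebpa and Cebpe difference was 11.6 points at 2000 UMIs, 17.6 without thinning and -1.14 in FcgR-high cells; Cebpa with Cebpg was 1.02 without thinning and 0.317 in FcgR-high cells, and Cebpe with Cebpg 1.14 at 500 UMIs. Except where fewer pools or cells entered, the cause was not tested. No paired analysis was possible because replicate numbers follow accession order and tie no pool of one group to a pool of another. With 2 UMIs each, Cebpb and Cebpd lie below what this depth can compare.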

Other observations

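In erythroid-like cells Cebpa was at 53.3 CPM in Cebpa control (96 UMIs in 507 cells, pools 45.3 to 76.8) and at 6.69 CPM in unsorted cells (23 UMIs in 649 cells, pools 0 to 19.3), ranges that did not overlap. It was at 1.79 CPM in Cebpa KO (5 UMIs in 890 cells), 9.88 CPM in Cebpe control (3 UMIs in 74 cells) and 28.7 CPM in Cebpe KO (5 UMIs in 51 cells). Mpo in the same cells was at 937 CPM in Cebpa control and 1121 CPM in unsorted cells. Cebpe was at 15.0 CPM in these Cebpa control cells and 5.24 CPM in unsorted cells. The unsorted cells were clustered and the others given the nearest cluster, so these values are not compared by a test. The share of all genes whose ranges did not overlap was not counted.

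In monocyte-like cells Cebpe was at 105 CPM in Cebpa control (180 cells, pools 22.9 to 242) and at 41.0 CPM in unsorted cells (640 cells, pools 6.47 to 90.1), with ranges that overlapped. Cebpg in neutrophil-like cells was at 100.5 CPM in Cebpe KO (pools 66.3 to 143), 66.2 CPM in Cebpe control, 54.8 CPM in unsorted cells and 12.4 CPM in Cebpa control (3 UMIs in 84 cells).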
